A study of Mus musculus with 15 samples.

Results

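Hair follicle stem cell and hair cycle genes were followed in ear RNA of mice that lack *Socs3* in keratin 5-expressing cells. The 10 genes (*Lgr5*, *Lgr6*, *Cd34*, *Sox9*, *Lhx2*, *Nfatc1*, *Fgf18*, *Fgf5*, *Fgf7* and *Gli1*) were taken by exact gene symbol from the 21110 genes of each expression file. All 10 were found. At 2 weeks, *Lhx2*, *Gli1*, *Lgr5* and *Sox9* were lower in *Socs3* cKO mice than in the wild type. Their falls were between 2.90-fold for *Sox9* and 7.16-fold for *Lhx2*. The call of *Gli1* was lost when *Socs3* cKO replicate 3 or any 1 wild type mouse was left out. *Cd34*, *Lgr6*, *Nfatc1*, *Fgf18* and *Fgf7* were not DEGs at that age, and *Fgf5* did not pass the filter on low values. At 10 weeks, *Lhx2*, *Lgr5* and *Gli1* were low in both genotypes, *Sox9* was lower in *Socs3* cKO, and *Lgr6* and *Fgf7* were higher. The calls of *Sox9*, *Lgr6* and *Fgf7* were all lost without wild type replicate 1, wild type replicate 3 or *Socs3* cKO replicate 2. *Lgr6* and *Fgf7* were also not called under quantile normalization or relative to *Krt5* and *Krt14*. Of all genes tested at 10 weeks, 12.5% were called higher and 2.43% lower.

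The series compared the C57BL/6 wild type with *Socs3* cKO mice, in which Socs3 (a suppressor of cytokine signaling through STAT3) is deleted under the control of keratin 5, at 2 and 10 weeks after birth. Each library came from the ear of 1 mouse. The age of 2 weeks had 4 mice of each genotype, and the age of 10 weeks had 3 wild type mice beside 4 *Socs3* cKO mice. The labels name keratinocytes as the source, whereas the protocol names ear specimens. The other wild type mice that the study describes were not analysed here. Keratin 5 is made in basal epidermis and in the outer root sheath of the follicle, so both lie within the reach of the deletion, and dermal cells, cartilage and blood vessels do not.

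Hair follicles grow, regress and rest in cycles, and each new cycle starts from stem cells in the bulge and in the hair germ below it. Growing follicles hold matrix cells that divide and form the hair shaft from hair keratins, whereas resting follicles keep the stem cells but have no matrix. Levels of stem cell genes and levels of hair keratins therefore need not report on the same part of the follicle. The genes followed here are not confined to stem cells: *Gli1* is also made in the matrix, *Sox9* in cartilage and *Cd34* in vessels. Their levels are thus not a readout of stem cells alone, nor one fully apart from the growing follicle. In ear RNA, fewer cells of a type and less RNA per cell cannot be told apart.

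Expression is given as FPKM, the mapped fragments of a gene scaled to its length and to the library. Library depths are not given in the sources used here. The log2(FC) values are on the scale of log2(FPKM + 0.1), which understates changes of low genes, and a DEG has an adjusted p below 0.01 (limma, Benjamini-Hochberg) and a |log2(FC)| of at least 1. An unadjusted p below 0.05 (limma) was common: 7842 of 13524 genes tested had one between genotypes at 2 weeks. Between genotypes at 10 weeks it was 6385 of 13105, and between ages in *Socs3* cKO 3681 of 13937. Whole-gene FPKM of the targeted *Socs3* at 2 weeks ranged from 9.71 to 10.3 in wild type mice and from 1.25 to 12.6 in *Socs3* cKO mice. At 10 weeks the ranges were 2.02 to 4.81 and 29.8 to 47.7. These levels did not show the deletion, so *Socs3* cKO below means the mice labelled as such. *Socs3* cKO replicate 1 at 2 weeks stood apart, with a median absolute log2 difference of 0.65 from the rest of its group against 0.09 to 0.41 for the other 14 libraries. Relative to the mean of the wild type at 2 weeks, genes in the fifth with the highest GC content (56.3% to 72.9%) had a median log2 difference of -2.46 in that library, -0.63 to -0.54 in the other *Socs3* cKO mice of 2 weeks and -0.74 to -0.55 in those of 10 weeks. In the wild type at 10 weeks it was -0.71 to -0.57. In the fifth with the lowest GC content (32.8% to 44.7%) the values were 0.75 in that library, 0.30 to 0.44 in the other *Socs3* cKO mice and -0.57 to 0.02 in the wild type at 10 weeks. Each result below is therefore also given, where it matters, after the dependence of each library on length and GC content was taken out (called below the length and GC trend). Library numbers run in a separate range for each group, so batch and condition cannot be told apart.

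The promoters of 3 members, each read as the 250 bases before the gene start in RefSeq (GRCm38.p6), show how unlike the regions before these genes are. *Lhx2* and *Fgf5* were lower in *Socs3* cKO at 2 weeks, and *Fgf7* was higher in *Socs3* cKO at 10 weeks. Capitals mark the GC box GGGCGG and the CCAAT box on either strand. *Lhx2* has a second start in the table, and its first is shown (chr2:38339031-38339280, + strand). The *Fgf5* window is chr5:98253934-98254183 on the + strand, and that of *Fgf7* is chr2:126034408-126034657 on the + strand.
Lhx2: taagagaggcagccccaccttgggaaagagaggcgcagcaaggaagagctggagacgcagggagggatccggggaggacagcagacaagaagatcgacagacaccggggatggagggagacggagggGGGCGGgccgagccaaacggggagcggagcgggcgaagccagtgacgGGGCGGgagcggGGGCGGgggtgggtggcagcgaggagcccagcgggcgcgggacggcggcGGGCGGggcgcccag
Fgf5: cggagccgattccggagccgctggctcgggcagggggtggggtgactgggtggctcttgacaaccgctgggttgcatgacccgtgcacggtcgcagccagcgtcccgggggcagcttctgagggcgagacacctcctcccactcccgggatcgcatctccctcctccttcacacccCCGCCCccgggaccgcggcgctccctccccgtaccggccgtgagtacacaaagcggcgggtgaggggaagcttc
Fgf7: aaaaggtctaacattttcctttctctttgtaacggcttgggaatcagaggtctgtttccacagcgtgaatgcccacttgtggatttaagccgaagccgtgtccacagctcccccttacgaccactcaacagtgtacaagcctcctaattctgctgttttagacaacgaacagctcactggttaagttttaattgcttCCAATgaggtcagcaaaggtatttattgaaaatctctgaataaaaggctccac

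The *Lhx2* window holds 72.8% G and C and 4 GC boxes, the *Fgf5* window 70.8% and 1, and the *Fgf7* window 43.6%, 0 GC boxes and 1 CCAAT box. The window before the second *Lhx2* start, which is not shown, holds 68.4% G and C and 0 GC boxes. Also not shown are the windows of *Fgf18* (77.2% and 1 GC box), *Lgr6* (65.2% and 1) and *Cd34* (46.4% and 0). *Lgr6*, like *Fgf7*, was called higher at 10 weeks. Whether the letters of a window go with the direction of change was not tested. Of 32851 promoter windows of the same length, 32.7% hold a GC box and 33.8% a CCAAT box. The GLI motif GACCACCCA (both strands), held by 0.225% of windows, and the STAT motif TTCNNNGAA, held by 7.02%, were in 0 of the 7 windows that the table has for 6 of the 10 genes. That says only that these letters are not in these windows.

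The receptors and surface proteins of the stem cells differed among themselves. *Lgr5*, a receptor for R-spondins that marks cycling stem cells of the lower bulge and hair germ (mm9 chr10:114887367-115024836, - strand), was 13.0, 12.0, 10.3 and 12.9 FPKM in the wild type and 2.02, 3.76, 1.30 and 2.41 FPKM in *Socs3* cKO at 2 weeks. At 10 weeks it was 1.29, 2.11 and 1.62 FPKM in the wild type and 2.49, 2.1, 1.96 and 0.920 FPKM in *Socs3* cKO. The wild type at 2 weeks was thus above every other mouse, and the other 3 groups overlapped. *Lgr5* fell 5.23-fold in *Socs3* cKO at 2 weeks (log2(FC) = -2.39, SE 0.29, adjusted p = 0.000697), and at 10 weeks its log2(FC) was 0.09 (SE 0.35, adjusted p = 0.846), a value that was -0.63 to -0.15 under 3 other scalings and with the length and GC trend removed, and -0.07 and -0.06 without wild type replicate 1 or *Socs3* cKO replicate 1.

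*Lgr6*, the related receptor of stem cells in the isthmus above the bulge (mm9 chr1:136882925-137001853, - strand), was 7.04, 7.12, 4.26 and 4.27 FPKM in the wild type and 1.2, 7.26, 6.70 and 6.43 FPKM in *Socs3* cKO at 2 weeks. The low value is that of the library that stood apart. At 10 weeks *Lgr6* was 1.35, 2.07 and 1.29 FPKM in the wild type and 8.07, 7.34, 3.56 and 3.05 FPKM in *Socs3* cKO, with no overlap. At 2 weeks the log2(FC) of *Lgr6* was -0.30 (SE 0.55, adjusted p = 0.656), and it was 0.30 (adjusted p = 0.249) without that library and 1.08 (adjusted p = 0.00348) with the length and GC trend removed. At 10 weeks *Lgr6* rose 3.14-fold (log2(FC) = 1.65, SE 0.37, adjusted p = 0.00835), and it was still a DEG with the trend removed (1.36, adjusted p = 0.00844). The rise of *Lgr6* was not a DEG under median-of-ratios scaling (1.40, adjusted p = 0.0133), quantile normalization (1.27, adjusted p = 0.0151) or relative to *Krt5* and *Krt14* (0.99, adjusted p = 0.0724). Nor was it one without wild type replicate 1 or 3 or *Socs3* cKO replicate 1, 2 or 3, with an adjusted p of 0.0103 to 0.0412. *Lgr6* has a transcript with a GC content of 58.5%, within the fifth of genes with the highest GC content.

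*Cd34*, a surface protein of bulge stem cells that is also made by vessels, mast cells and dermal fibroblasts (mm9 chr1:196765015-196787486, + strand), was the most abundant of the 10 genes in every group. It was 109, 114, 124 and 117 FPKM in the wild type and 104, 95.0, 103 and 94.0 FPKM in *Socs3* cKO at 2 weeks, and 78.9, 89.3 and 69.3 FPKM against 125, 104, 89.1 and 159 FPKM at 10 weeks. Every *Socs3* cKO mouse was below every wild type mouse at 2 weeks, but the step was small (log2(FC) = -0.23, SE 0.11, adjusted p = 0.111), and at 10 weeks the groups overlapped (log2(FC) = 0.56, SE 0.22, adjusted p = 0.066). Of 7 endothelial markers at 2 weeks, 1 rose (*Emcn*) and 0 fell, and at 10 weeks 3 rose (*Kdr*, *Pecam1* and *Cdh5*) and 0 fell. With the length and GC trend removed, 0 rose and 0 fell at 2 weeks, and 1 rose and 0 fell at 10 weeks. The sum of these markers was 93.1 to 105 FPKM in the wild type and 68.1 to 82.5 FPKM in *Socs3* cKO at 2 weeks, and 31.4 to 36.2 FPKM against 53.4 to 73.9 FPKM at 10 weeks, and none of them was at 0. Of 5 mast cell markers, 0 were DEGs at either age (limma; unadjusted p below 0.05 for 4 at 2 weeks and 1 at 10 weeks), with a sum of 460 to 491 FPKM in the wild type and 551 to 1101 FPKM in *Socs3* cKO at 2 weeks. The part of these cells in the *Cd34* level was not tested. An exon stretch of 148 bases of *Cd34* overlaps a gene on the opposite strand, *Gm16897*, and without strand in the libraries their reads cannot be told apart.

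**Figure D1:**
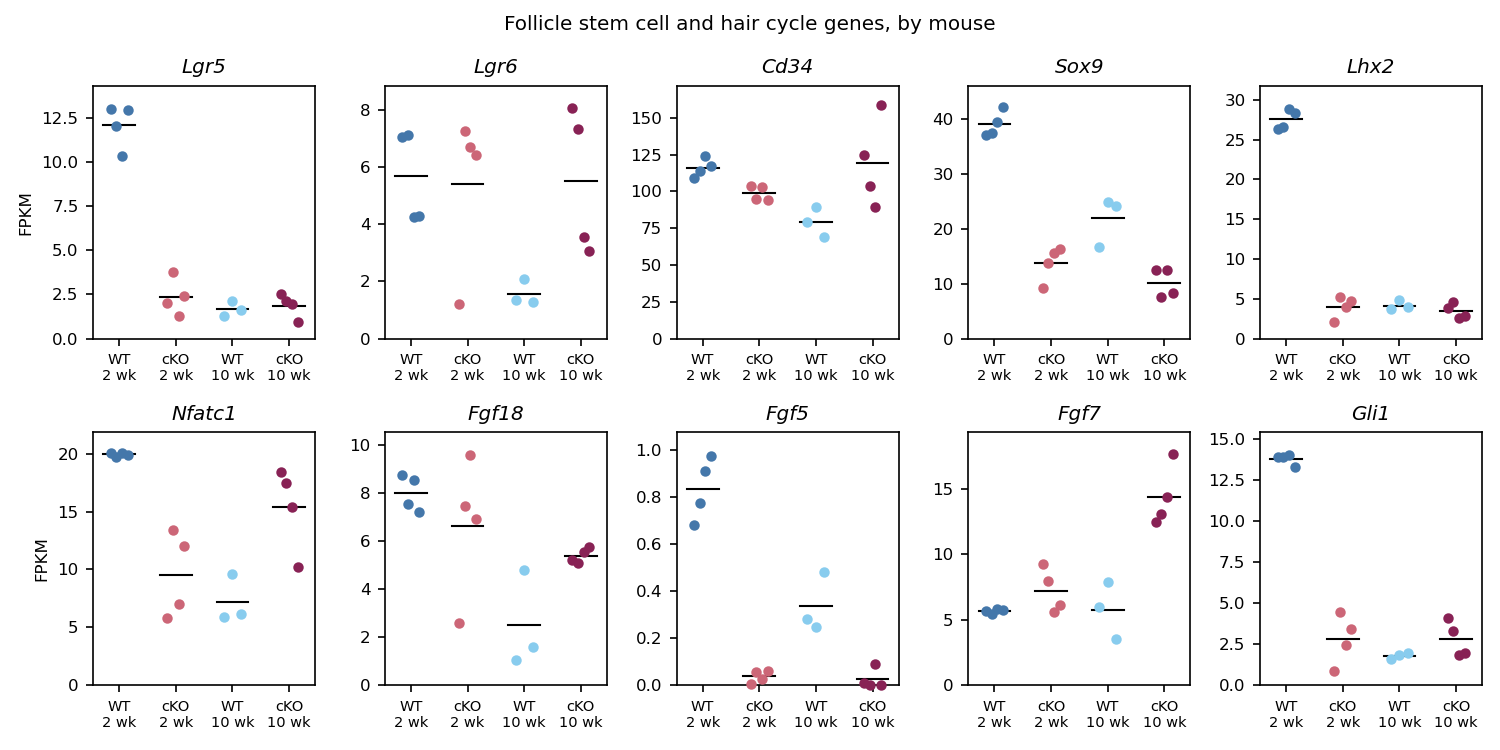
FPKM of each of the 10 genes (y axis, linear, from 0) in every mouse (points) of the 4 groups (x axis), with the group mean as a bar. For *Lgr5*, *Lhx2* and *Gli1* the 4 wild type mice of 2 weeks lie above all other mice, whereas *Fgf7* is highest in *Socs3* cKO mice of 10 weeks (12.5 to 17.7 FPKM).

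Among the transcription factors, *Lhx2*, a LIM homeobox factor that holds bulge and hair germ cells in the stem cell state (mm9 chr2:38194801-38225253, + strand), had the deepest fall. At 2 weeks it was 26.4, 26.6, 28.9 and 28.4 FPKM in the wild type and 2.03, 5.16, 3.97 and 4.75 FPKM in *Socs3* cKO. The values of *Lhx2* at 10 weeks were 3.67, 4.83 and 3.95 FPKM in the wild type and 3.81, 4.56, 2.52 and 2.78 FPKM in *Socs3* cKO. The *Socs3* cKO mean of *Lhx2* at 2 weeks was 14.4% of the wild type mean of that age. It fell 7.16-fold at 2 weeks (log2(FC) = -2.84, SE 0.27, adjusted p = 0.000246), with -1.95 (adjusted p = 5.25e-06) once the length and GC trend was removed, and at 10 weeks the log2(FC) was -0.30 (SE 0.26, adjusted p = 0.367).

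*Gli1*, a transcription factor and a target of hedgehog signaling in the hair germ, the matrix and the isthmus (mm9 chr10:126766945-126778645, - strand), was 13.9, 13.9, 14.0 and 13.3 FPKM in the wild type and 0.854, 4.44, 2.43 and 3.4 FPKM in *Socs3* cKO at 2 weeks. At 10 weeks it was 1.56, 1.84 and 1.94 FPKM in the wild type and 4.10, 3.30, 1.81 and 1.95 FPKM in *Socs3* cKO, so that the groups overlapped. *Gli1* fell 5.57-fold at 2 weeks (log2(FC) = -2.48, SE 0.43, adjusted p = 0.00364). Its adjusted p was 0.0128 to 0.0143 without *Socs3* cKO replicate 3 or any 1 wild type mouse, and 5.24e-05 without the *Socs3* cKO library that stood apart (log2(FC) = -2.02). With the length and GC trend removed the fall of *Gli1* was smaller, at -1.09 (adjusted p = 0.000285). *Gli1* shares 55 exonic bases with *Arhgap9* on the opposite strand, whose reads cannot be told apart there. At 10 weeks the log2(FC) of *Gli1* was 0.55 (SE 0.32, adjusted p = 0.193), and it was -0.12 relative to *Krt5* and *Krt14*.

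*Sox9*, a factor that bulge cells need and that cartilage cells also make (mm9 chr11:112643538-112649074, + strand), was lower in *Socs3* cKO at both ages. At 2 weeks it was 37.0, 37.5, 39.5 and 42.1 FPKM in the wild type and 9.12, 13.8, 15.6 and 16.4 FPKM in *Socs3* cKO, and at 10 weeks 16.7, 24.9 and 24.2 FPKM against 12.4, 7.65, 12.4 and 8.37 FPKM. The genotypes did not overlap at either age. *Sox9* fell 2.90-fold at 2 weeks (log2(FC) = -1.53, SE 0.19, adjusted p = 0.000841) and 2.15-fold at 10 weeks (log2(FC) = -1.11, SE 0.24, adjusted p = 0.00704). At 10 weeks the adjusted p was 0.0105 to 0.034 without wild type replicate 1, 2 or 3 or *Socs3* cKO replicate 1, 2 or 4, with a log2(FC) from -1.29 to -0.98, and with the length and GC trend removed the fall was larger (-1.75, adjusted p = 0.000781). The 6 cartilage markers tested at 2 weeks held 1 DEG that fell (*Col2a1*, type II collagen, log2(FC) = -2.89) and 1 that rose (*Chad*, 1.38), and at 10 weeks 1 that rose (*Chad*, 1.99) and 0 that fell. With the length and GC trend removed, 2 rose and 0 fell at 2 weeks, and 1 rose and 0 fell at 10 weeks. The summed cartilage markers were 243 to 402 FPKM in the wild type and 93.0 to 330 FPKM in *Socs3* cKO at 2 weeks, and 93.8 to 155 FPKM against 209 to 401 FPKM at 10 weeks. At 10 weeks 6 of 6 tested cartilage markers had a positive log2(FC), as did 8752 of all 13105 genes tested. *Chad* was the one DEG among these markers. *Matn1* was listed at 0 or at most 0.102 FPKM in every library. The part of cartilage in the level of *Sox9* was not tested.

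*Nfatc1*, a factor that keeps bulge stem cells at rest (mm9 chr18:80802944-80909810, - strand), was 20.1, 19.7, 20.1 and 19.9 FPKM in the wild type and 5.84, 13.4, 7.0 and 12.0 FPKM in *Socs3* cKO at 2 weeks, and 5.89, 9.59 and 6.16 FPKM against 18.4, 17.5, 15.4 and 10.2 FPKM at 10 weeks. The genotypes were apart at both ages and in opposite directions. Neither difference was a DEG: the log2(FC) of *Nfatc1* was -1.14 (SE 0.27, adjusted p = 0.0113) at 2 weeks and 1.08 (SE 0.26, adjusted p = 0.0104) at 10 weeks. With the length and GC trend removed they were 0.07 (adjusted p = 0.806) and 0.54 (adjusted p = 0.0143).

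The growth factors followed 3 different patterns. *Fgf5*, the signal that ends hair growth (mm9 chr5:98683203-98706049, + strand), was below 1 FPKM in every mouse and did not pass the filter on low values. It was 0.681, 0.774, 0.911 and 0.974 FPKM in the wild type and 0.00584, 0.0574, 0.0259 and 0.0599 FPKM in *Socs3* cKO at 2 weeks. At 10 weeks *Fgf5* was 0.279, 0.248 and 0.482 FPKM in the wild type and 0.00905, 0.00135, 0.0896 and 0 FPKM in *Socs3* cKO. No *Socs3* cKO mouse reached any wild type mouse of its age. In a fit without the filter *Fgf5* was lower at both ages (log2(FC) = -2.78, SE 0.19, adjusted p = 9.68e-05 at 2 weeks, and -1.82, SE 0.33, adjusted p = 0.00584 at 10 weeks), where 5.91% and 3.53% of all genes were called lower. These folds depend on the pseudocount because the *Socs3* cKO values lie below it. The wild type libraries of 10 weeks listed 1414 to 3176 genes at 0, against 4044 to 4423 in all other libraries. The part of this in the *Fgf5* difference at 10 weeks was not tested.

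*Fgf18*, a growth factor made by resting bulge cells that prolongs the resting phase (mm9 chr11:33017430-33047400, - strand), was 8.76, 7.52, 8.52 and 7.22 FPKM in the wild type and 2.59, 7.47, 9.59 and 6.91 FPKM in *Socs3* cKO at 2 weeks. At 10 weeks *Fgf18* was 1.03, 4.81 and 1.60 FPKM in the wild type and 5.22, 5.07, 5.54 and 5.74 FPKM in *Socs3* cKO, with no overlap between genotypes. The log2(FC) of *Fgf18* was -0.41 (SE 0.37, adjusted p = 0.366) at 2 weeks, or -0.01 without the library that stood apart, and 1.38 (SE 0.42, adjusted p = 0.0291) at 10 weeks. Without wild type replicate 2, the mouse at 4.81 FPKM, it was 1.98 at 10 weeks (adjusted p = 0.000534).

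*Fgf7*, the keratinocyte growth factor made by dermal papilla and other dermal cells (mm9 chr2:125860394-125916921, + strand), was 5.70, 5.47, 5.80 and 5.71 FPKM in the wild type and 9.27, 7.96, 5.57 and 6.10 FPKM in *Socs3* cKO at 2 weeks. At 10 weeks *Fgf7* was 5.95, 7.85 and 3.53 FPKM in the wild type and 12.5, 13.1, 14.4 and 17.7 FPKM in *Socs3* cKO, with no overlap. It rose 2.57-fold at 10 weeks (log2(FC) = 1.36, SE 0.27, adjusted p = 0.00456), and its log2(FC) at 2 weeks was 0.32 (SE 0.19, adjusted p = 0.179), or -0.55 (adjusted p = 0.0182) with the length and GC trend removed. At 10 weeks the adjusted p of *Fgf7* was 0.0109 to 0.0152 without wild type replicate 1 or 3 or *Socs3* cKO replicate 2 or 3. The log2(FC) was 0.76 (adjusted p = 0.00497) with the trend removed, below the threshold of 1, and it was 0.95 under quantile normalization and 0.70 relative to *Krt5* and *Krt14* (adjusted p = 0.061). Of 6 fibroblast markers at 10 weeks, 1 rose (*Pdgfra*, log2(FC) = 1.34) and 0 fell, with sums of 3311 to 5450 FPKM in the wild type and 5083 to 9240 FPKM in *Socs3* cKO. With the length and GC trend removed, 0 of the 6 rose. All 4 macrophage and neutrophil markers tested (*Cd68*, *Csf1r*, *Emr1* and *Itgam*) rose at 10 weeks, and their sum was 44.5 to 66.3 FPKM in the wild type and 118 to 148 FPKM in *Socs3* cKO. Of these 4, 1 rose with the trend removed. It was 2 under quantile normalization, 3 under median-of-ratios scaling and 0 relative to *Krt5* and *Krt14*. The part of fibroblasts, macrophages and neutrophils in the level of *Fgf7* was not tested.

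**Figure D2:**
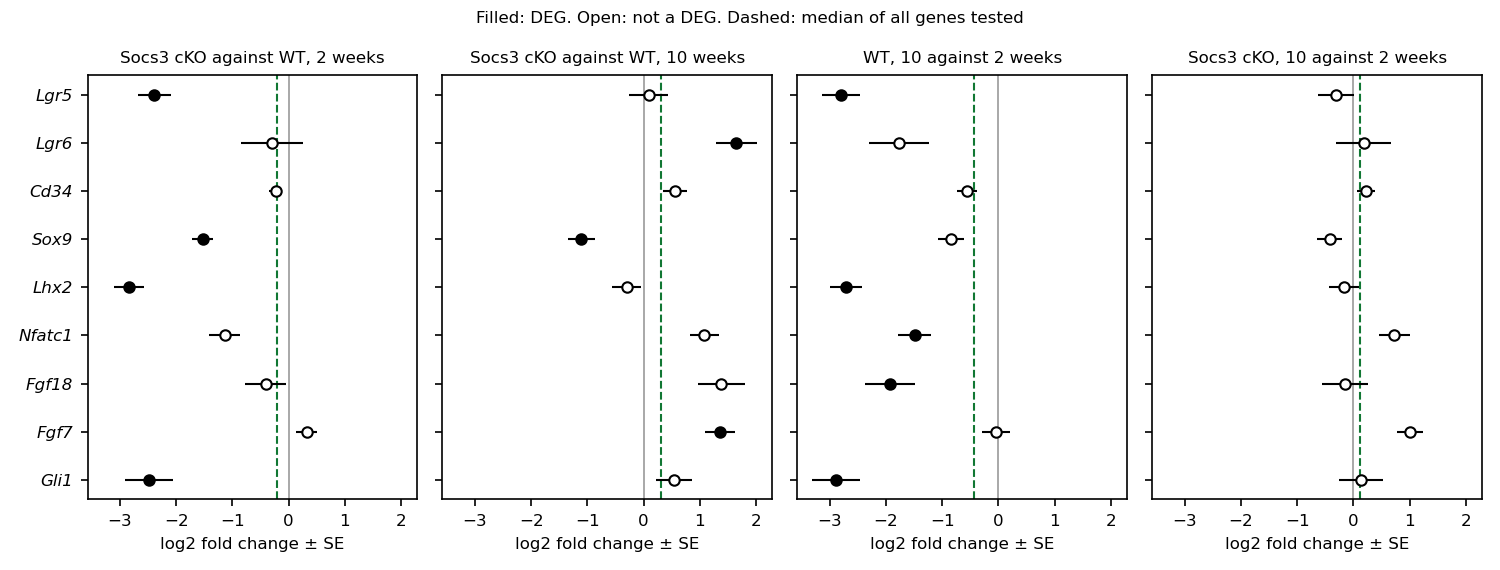
The log2(FC) with its standard error (x axis) of the 9 genes that passed the filter, in the 4 comparisons of 2 groups each. Filled points are DEGs, open points are not, and the dashed line is the median of all genes tested. At 2 weeks 4 points are filled and all lie to the left, and in *Socs3* cKO from 2 to 10 weeks none is filled.

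Counted together, 9 of the 10 genes passed the filter, and 4 of them were lower and 0 higher in *Socs3* cKO at 2 weeks, where 7.19% of all 13524 genes tested were lower and 7.24% higher. The median log2(FC) of the 9 was -1.14 against -0.21 over all genes. The count of 4 lower was also found without the library that stood apart. With the length and GC trend removed, 4 were lower and 1 was higher (*Lgr6*). Leaving out 1 mouse at a time gave 3 to 5 members called at 2 weeks. *Gli1* lost its call when *Socs3* cKO replicate 3 or any 1 wild type mouse was left out. At 10 weeks 2 were higher and 1 lower, where 12.5% of 13105 genes were higher and 2.43% lower, and the medians were 0.56 and 0.31. The count at 10 weeks was not stable to leaving out mice: it was 0 without wild type replicate 1, wild type replicate 3 or *Socs3* cKO replicate 2, 1 without *Socs3* cKO replicate 1 or 3, and at most 4. Under median-of-ratios scaling the median of all genes was -0.01 at 2 weeks and 0.06 at 10 weeks, a shift of the whole scale against which the differences of single genes stand. That scaling also changed the split of DEGs over all genes at 10 weeks from 1638 higher and 319 lower to 1073 and 632.

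More genes changed with age in the wild type than in *Socs3* cKO, over all genes (3559 against 493 DEGs) as well as among the members. From 2 to 10 weeks, *Gli1* fell 7.40-fold (log2(FC) = -2.89, SE 0.42, adjusted p = 0.000113), *Lgr5* fell 6.94-fold (-2.80, SE 0.34, adjusted p = 2.93e-05) and *Lhx2* fell 6.55-fold (-2.71, SE 0.28, adjusted p = 6.88e-06) in the wild type. *Fgf18* (-1.93, SE 0.44, adjusted p = 0.00285) and *Nfatc1* (-1.49, SE 0.29, adjusted p = 0.000929) fell as well, which made 5 of 9 lower and 0 higher, where 19.4% of all genes were lower and 6.18% higher. *Fgf18* was not a DEG without wild type replicate 1 or 3 of 10 weeks (adjusted p = 0.0212 and 0.0179), and *Nfatc1* was not with the length and GC trend removed (-0.24, adjusted p = 0.338). *Sox9* (-0.85, adjusted p = 0.00861) missed the threshold of fold, *Lgr6* (-1.77, adjusted p = 0.0136) that of p and *Cd34* (-0.56, adjusted p = 0.0175) both, and *Fgf7* stayed near its level (-0.05, SE 0.25, adjusted p = 0.886). In the fit without the filter, *Fgf5* was lower at 10 weeks (-1.13, SE 0.27, adjusted p = 0.0042), where 13.7% of all genes were called lower. The wild type libraries of 10 weeks are those that listed fewer genes at 0. The median over all genes was -0.44 in this comparison.

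In *Socs3* cKO mice 0 of the 9 genes were DEGs between 10 and 2 weeks, against 3.54% of all genes in either direction (limma). At an unadjusted p below 0.05 there were 2, *Fgf7* (log2(FC) = 1.0, SE 0.23, adjusted p = 0.0121) and *Nfatc1* (0.73, SE 0.27, adjusted p = 0.0981). Of all genes tested, 3681 of 13937 had an unadjusted p below 0.05 (limma). Without the 2-week library that stood apart *Fgf7* was a DEG (1.13, adjusted p = 0.00507). *Lhx2*, *Lgr5* and *Gli1* stood at 3.98, 2.37 and 2.78 FPKM on average in *Socs3* cKO at 2 weeks, and at 4.15, 1.67 and 1.78 FPKM in the wild type at 10 weeks. These groups differ in genotype and age, so no test was made between them.

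The genotype by age interaction, which asks whether the genotypes differed by the same amount at both ages, was below an adjusted p of 0.01 for *Gli1* (3.02, SE 0.57, adjusted p = 0.00132), *Lhx2* (2.54, SE 0.38, adjusted p = 0.000342), *Lgr5* (2.48, SE 0.47, adjusted p = 0.00134) and *Nfatc1* (2.22, SE 0.39, adjusted p = 0.000926). A positive value means a difference between *Socs3* cKO and the wild type that was more positive at 10 weeks, which held for 18.5% of all genes at this threshold, and the median of all genes was 0.55. *Gli1*, *Lhx2* and *Lgr5* kept their calls with the length and GC trend removed (1.37, 1.52 and 1.49), and *Nfatc1* did not (0.51, adjusted p = 0.139), but it did when *Socs3* cKO replicate 1 of 2 weeks was also left out (0.71, adjusted p = 0.00789). The interaction of *Fgf7* missed the threshold (adjusted p = 0.0204), and it passed with the trend removed (1.28, adjusted p = 0.000465) and without that library (1.18, adjusted p = 0.00706). For *Sox9*, lower at both ages, the interaction was 0.43 (SE 0.32, adjusted p = 0.277).

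**Figure D3:**
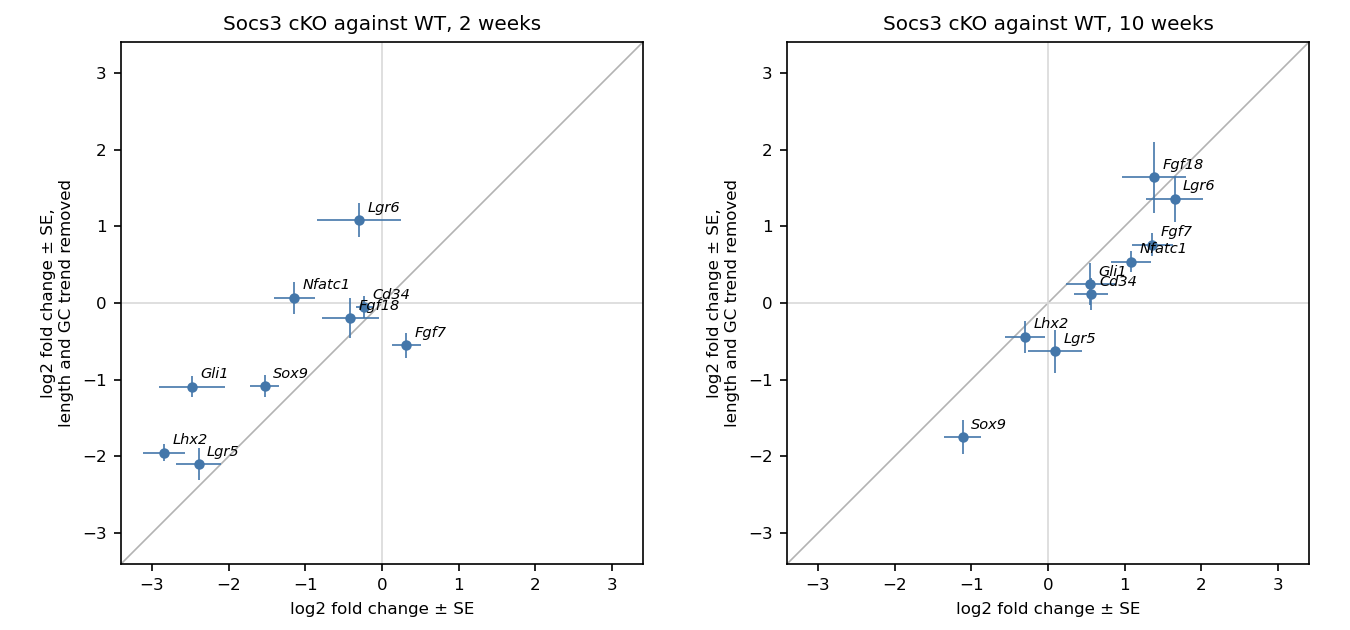
The log2(FC) of *Socs3* cKO against the wild type for the 9 genes as deposited (x axis) and with the length and GC trend removed (y axis), with standard errors, at 2 weeks (left) and 10 weeks (right). On the diagonal both agree. *Lhx2*, *Lgr5*, *Sox9* and *Gli1* stay below -1 on both axes at 2 weeks, *Nfatc1* moves to 0.07 and *Lgr6* to 1.08.

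Within a group, the order of the 10 genes by mean FPKM also differed. In the wild type at 2 weeks it was *Cd34* (116), *Sox9* (39.0), *Lhx2* (27.6), *Nfatc1* (19.9), *Gli1* (13.8), *Lgr5* (12.0), *Fgf18* (8.0), *Lgr6* (5.67), *Fgf7* (5.67) and *Fgf5* (0.835), and the only neighbours whose mice overlapped were *Lgr6* and *Fgf7*. In *Socs3* cKO at 2 weeks, *Lhx2* came seventh at 3.98 FPKM, behind *Nfatc1*, *Fgf7*, *Fgf18* and *Lgr6*, and all neighbours from *Sox9* to *Lgr5* overlapped. In *Socs3* cKO at 10 weeks, *Nfatc1* (15.4 FPKM) and *Fgf7* (14.4 FPKM) were both on average above *Sox9* (10.2 FPKM), and *Nfatc1* and *Fgf7* overlapped.

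The profiles of the members over the 15 mice were compared as the root mean square difference of log2(FPKM + 0.1) after centring each gene, as a description without a test. Of the 9 members, *Gli1* and *Lhx2* were the closest pair (0.40), followed by *Lgr5* and *Lhx2* (0.45) and by *Gli1* and *Lgr5* (0.50). Among all genes, those nearest to *Lhx2* were *Ppp1r3b* (0.23), *Alx4* (0.28) and *Cacna2d2* (0.32), and those nearest to *Gli1* were *Ptpru*, *Smtn* and *Gli2*, each at 0.27. *Gli2*, another transcription factor of hedgehog signaling, had group means of 8.89 FPKM in the wild type and 1.68 FPKM in *Socs3* cKO at 2 weeks. Nearest to *Lgr5* were *Srms* (0.33), *Rnf152* (0.34) and *Zcchc5* (0.35), to *Sox9* *Chst2* (0.28), *Ccdc102a* (0.30) and *Zcchc3* (0.30), and to *Nfatc1* *Mybbp1a* (0.16), *1700081L11Rik* (0.16) and *Sap130* (0.18). *Lgr6* was nearest to *Heg1* (0.33), *Gm6194* (0.34) and *Abcg4* (0.35), and *Fgf18* to *Cog1* (0.32), *Pcsk6* (0.33) and *Sh3tc1* (0.33). *Fgf7* was nearest to the macrophage marker *Cd68* (0.20), the complement gene *C2* (0.22) and *Rpgrip1l* (0.25). *Cd68* had group means of 25.4 FPKM in the wild type and 60.4 FPKM in *Socs3* cKO at 10 weeks. All genes share the same 15 libraries and their GC shift.

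The pathways around the members were counted from lists chosen for their known roles. These counts stand beside the shares of all genes tested, 7.19% lower and 7.24% higher at 2 weeks and 2.43% lower and 12.5% higher at 10 weeks. In the wild type with age the shares were 19.4% lower and 6.18% higher. Of 19 other bulge and hair germ genes tested at 2 weeks, 7 fell and 0 rose, with a median log2(FC) of -0.97. *Tbx1* (-3.18), *Ltbp2* (-2.05), *Runx1* (-1.82) and *Npnt* (-1.71) had the largest changes among these DEGs. The number that fell was 9 without the library that stood apart and 6 with the length and GC trend removed, where the median was -0.52. *Krt15*, the keratin of the bulge and of basal cells in young skin, had a mean of 1284 FPKM in the wild type and 827 FPKM in *Socs3* cKO at 2 weeks (-0.64, adjusted p = 0.00796), and was no DEG. At 10 weeks 6 of the 19 rose, led by the matrix protein of the bulge *Npnt* (3.06), *Foxp1* (1.48), *Ltbp2* (1.38) and the isthmus stem cell gene *Lrig1* (1.14), and 1 fell, *Tcf7l2* (-1.13), with a median of 0.75. With the length and GC trend removed, and likewise under median-of-ratios scaling, 2 rose and 2 fell at 10 weeks. The median of all genes tested was -0.21 at 2 weeks and 0.31 at 10 weeks.

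The hedgehog list, apart from *Gli1*, held 4 that fell and 0 that rose of 12 tested at 2 weeks. Among them were the ligand *Shh* (log2(FC) = -3.42, adjusted p = 5.54e-05), the transcription factor *Gli2* (-2.53, adjusted p = 0.00252) and the inhibitor *Hhip* (-1.29, adjusted p = 0.0023). *Shh*, which is made by growing follicles, was 0.824 to 1.26 FPKM in the wild type at 2 weeks and at most 0.12 FPKM in every other mouse. At 10 weeks 3 of 8 rose (*Ptch1*, 2.75, *Sufu*, 2.24, and *Gli3*, 1.52) and 0 fell, while *Gli1* did not pass the test. From 2 to 10 weeks in the wild type 10 of the 12 hedgehog genes fell, or 5 with the length and GC trend removed and 7 under median-of-ratios scaling, and in *Socs3* cKO 0 of 12 were DEGs (limma; 3 at an unadjusted p below 0.05).

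Around *Lgr5* and *Lgr6*, the R-spondin list held 0 DEGs of 8 tested at 2 weeks and 0 of 7 at 10 weeks (limma). An unadjusted p below 0.05 was found for 4 of the 8 at 2 weeks (*Rspo1*, *Znrf3*, *Lgr4* and *Rspo3*, with a log2(FC) of -1.46, -1.24, -0.80 and 0.53) and for 2 of the 7 at 10 weeks. The same p was reached by 7842 of all 13524 genes tested at 2 weeks and by 6385 of 13105 at 10 weeks (limma). *Lgr4*, the third receptor of the family, was 19.2 to 22.0 FPKM in the wild type and 10.5 to 12.7 FPKM in *Socs3* cKO at 2 weeks (adjusted p = 0.0021), a non-overlapping difference below the fold threshold, and it fell from 2 to 10 weeks in the wild type (-1.31, adjusted p = 0.000192). That fall with age was not a DEG with the length and GC trend removed, under median-of-ratios scaling or under quantile normalization. *Axin2*, a target of Wnt signaling, was 14.5 to 15.8 FPKM in the wild type and 2.27 to 13.4 FPKM in *Socs3* cKO at 2 weeks (-1.08, adjusted p = 0.0886). Of 10 other FGF ligands and receptors, 0 were DEGs at 2 weeks (limma). A negative log2(FC) was found for 9 of them, and for 7879 of all 13524 genes tested. An unadjusted p below 0.05 (limma) was found for 8 of the 10, against 7842 of all 13524 genes tested. Without the library that stood apart, 3 of these FGF genes fell. Of these FGF genes, 1 of 9 rose at 10 weeks, the ligand *Fgf2* (2.76, adjusted p = 0.0015). Of 8 NFAT and calcineurin genes around *Nfatc1*, *Nfatc2* was the one DEG at both ages, falling at 2 weeks (log2(FC) = -1.10, adjusted p = 0.00954) and rising at 10 weeks (log2(FC) = 1.5, adjusted p = 0.00239). With the length and GC trend removed, *Nfatc2* was a DEG at neither age.

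Hair keratins build the shaft and are made by matrix cells. At 2 weeks 11 of 12 hair keratins fell (median log2(FC) = -7.29), and their summed level was 767 to 1246 FPKM in the wild type and 13.1 to 30.8 FPKM in *Socs3* cKO. The exception was *Krt84*, at 18.9 to 28.4 FPKM in the wild type and 9.02 to 27.4 FPKM in *Socs3* cKO (-0.59, adjusted p = 0.192). Of 8 regulators of the matrix and hair shaft, 5 fell and 0 rose at 2 weeks, among them *Hoxc13* (-3.95), *Dlx3* (-3.42), *Foxn1* (-3.17) and *Msx2* (-3.12). At 10 weeks the hair keratins summed to 2.71 to 6.29 FPKM in the wild type and 1.32 to 17.3 FPKM in *Socs3* cKO, and the genotypes overlapped. The 11 hair keratins that fell at 2 weeks had a log2(FC) of -3.93 (*Krt32*) or lower, and the largest fall among the 9 members tested was -2.84 (*Lhx2*). *Fgf5*, which did not pass the filter, had a *Socs3* cKO mean at 4.46% of the wild type mean at 2 weeks, against 14.4% for *Lhx2*.

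In the dermal papilla list, 3 of 13 tested rose at 2 weeks and 3 fell. *Wif1*, an inhibitor of Wnt ligands, rose from 38.4 to 52.8 FPKM in the wild type to 225 to 464 FPKM in *Socs3* cKO (log2(FC) = 2.90, adjusted p = 8.96e-05), and *Corin* (1.97) and *Enpp2* (1.2) rose as well. *Alx4* (-2.78), *Sox18* (-2.11) and *Bmp4* (-1.48) fell. From 2 to 10 weeks in the wild type, 2 of the 13 rose, *Corin* (2.62) and *Wif1* (2.31), and 7 fell, with a median of -1.66. With the length and GC trend removed, 3 rose and 4 fell. *Lgr5*, *Lhx2* and *Gli1* fell over the same ages. The basal epidermis, where the deletion acts, had 1 DEG of 5 markers at 2 weeks (*Krt14*, 1.02), with a negative log2(FC) for the other 4 and a median of -0.39, and 0 at 10 weeks (limma; 3 at an unadjusted p below 0.05). Their summed level was 4167 to 4332 FPKM in the wild type and 4635 to 6985 FPKM in *Socs3* cKO at 2 weeks, a sum in which *Krt14* had a mean of 1648 and 3421 FPKM. Relative to the mean of *Krt5* and *Krt14*, the log2(FC) at 2 weeks was -3.16 for *Lhx2*, -2.79 for *Gli1*, -2.70 for *Lgr5* and -1.85 for *Sox9*. Of 6 fibroblast markers at 2 weeks, the collagens *Col1a1* (-3.06) and *Col1a2* (-1.72) fell and *Dcn* (1.24) rose, with sums of 8457 to 10124 FPKM in wild type mice and 3695 to 5428 FPKM in *Socs3* cKO mice. With the length and GC trend removed, 1 of the 6 fell and 0 rose. The part of fibroblasts in the falls of *Lhx2*, *Lgr5*, *Gli1* and *Sox9* was not tested. The remaining marker lists (T cell, Schwann cell and skeletal muscle) had 2 of 4, 0 of 4 and 2 of 4 DEGs at 2 weeks, all higher, and 0 at 10 weeks (limma; unadjusted p below 0.05 for 0, 0 and 3). With the length and GC trend removed, 0 of 4, 0 of 4 and 3 of 4 were DEGs at 2 weeks.

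**Figure D4:**
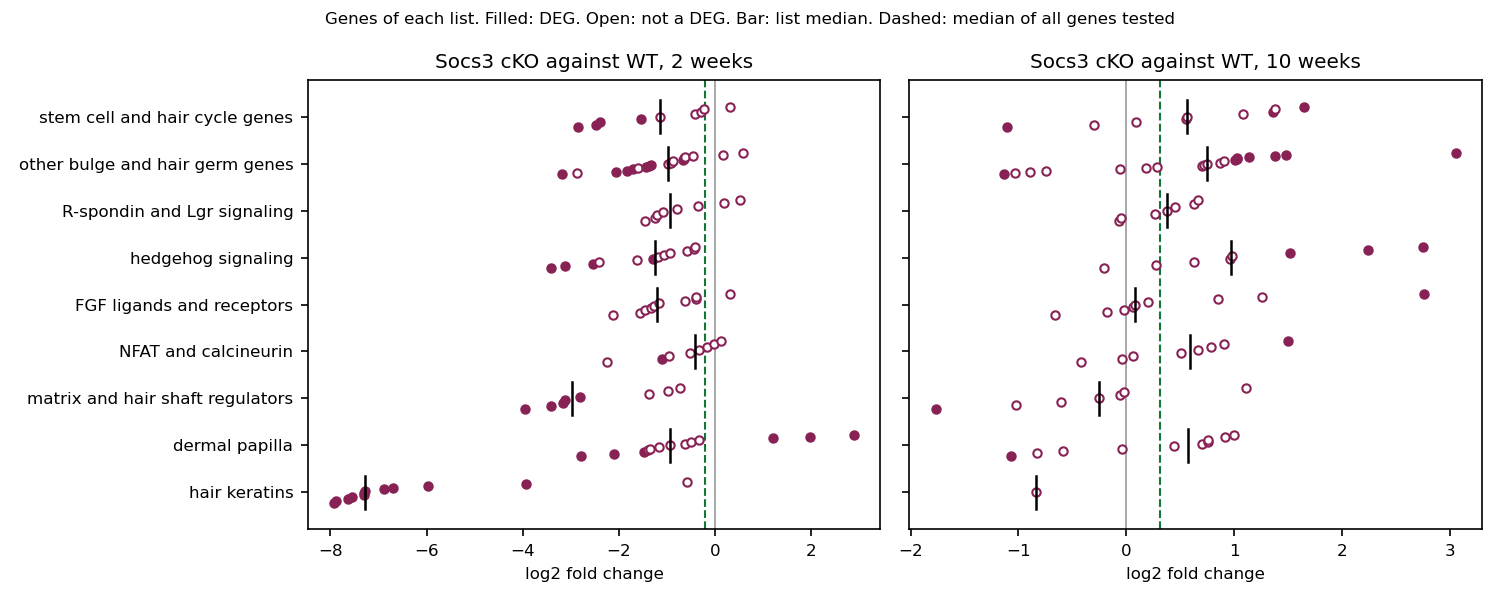
The log2(FC) of *Socs3* cKO against the wild type (x axis) for each gene of the stem cell and hair cycle genes and of the 8 lists around them (y axis), at 2 weeks (left) and 10 weeks (right, with its own scale). Filled points are DEGs, bars are list medians and the dashed line is the median of all genes tested. The hair keratins lie far to the left at 2 weeks (median -7.29), and a single hair keratin passed the filter at 10 weeks.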

How the data were processed

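RNA of 15 mouse ears was sequenced as single reads of 50 bases from libraries that do not keep strand. The submitters' processing notes name TopHat2 (version 2.1.0), Cufflinks and mm9. The authors deposited FPKM for 21110 genes per library, and no read counts were used here, so depth and counting error are unknown. Groups and replicate numbers come from the labels. The 10 genes, the lists and the tests were chosen with earlier results of these data known.

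Values were analysed as log2(FPKM + 0.1) with limma (version 3.58.1, R 4.3.3) and a trend in the prior variance, keeping genes whose FPKM reached 1 in 3 or more of the libraries of a comparison. Each age was fitted on its own for *Socs3* cKO against the wild type, and all 4 groups together for age and for the interaction. Tests were 2-sided with Benjamini-Hochberg adjustment over all genes tested. The limma step was run on simulated data with known changes and the same spread in every group. These data held no library that stood apart and no GC shift, so the run says nothing about them. The p-values measure the spread between these mice.

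All 10 genes are described in every comparison. From each list, up to 4 DEGs with the largest |log2(FC)| are named by rule, and any other gene of a list that is named was chosen after its values were seen. An item that this rule would name is not reported here. For likeness, 3 genes are named per member that was a DEG in at least 1 of the 4 comparisons of 2 groups. Alternatives were pseudocounts of 1 and 0.01, no filter, a stricter filter, median-of-ratios and quantile scaling, values relative to *Krt5* and *Krt14*, a constant prior variance, all 4 groups in one fit, the replicate number as a block, removal of the trend with length and GC content (known for 92.1% of genes), and leaving out each mouse. Removing the trend without *Socs3* cKO replicate 1 of 2 weeks was chosen after seeing the data. Gene positions are from the GENCODE annotation of that build, promoters from RefSeq (GRCm38.p6). Calculations outside limma used Python 3.11.15, numpy 2.4.6, pandas 2.3.3 and matplotlib 3.10.9.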

Additional observations from a re-analysis of the deposited data

Results flagged for a closer look

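The genotype by age interaction passed an adjusted p of 0.01 (limma) for *Lgr5* (2.48), *Lhx2* (2.54), *Nfatc1* (2.22) and *Gli1* (3.02), so their differences between *Socs3* cKO and the wild type were not the same at 2 and 10 weeks. With the trend with length and GC content removed, *Nfatc1* no longer passed (0.51), and it passed when *Socs3* cKO replicate 1 of 2 weeks was also left out (0.71).

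In 3 of the 30 groups of 4 mice looked at (10 genes in 3 groups), 1 mouse lay far from the other 3 on the log scale by Dixon's test, for which chance gives about 1 in 20. *Lgr6* was 1.2 FPKM in *Socs3* cKO replicate 1 at 2 weeks, the library that stood apart, against 6.43 to 7.26 FPKM in the other 3. *Fgf5* was 0.0896 FPKM in *Socs3* cKO replicate 3 at 10 weeks, where the others were at most 0.00905 FPKM. *Gli1* was 13.3 FPKM in wild type replicate 4 at 2 weeks against 13.9 to 14.0 FPKM, a small step within a very tight group.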

How the results depend on the processing

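Of 873 values of single members under another setting, 778 kept direction and call, 37 lost and 20 gained the call, and 38 changed sign; the cause was not tested. Over all genes, DEGs at 2 weeks numbered 1951, but 4069 relative to *Krt5* and *Krt14* and 3297 with all groups in one fit; interaction calls were 3566, and 2347 relative to *Krt5* and *Krt14*. With the length and GC trend removed, DEGs over all genes were 1279 instead of 1957 at 10 weeks and 2297 instead of 3559 in the wild type with age, and members called in *Socs3* cKO with age were 1 (*Fgf7*) instead of 0, also without *Socs3* cKO replicate 1. Members called at 10 weeks were 1 instead of 3 under quantile normalization and relative to *Krt5* and *Krt14*.

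Signs changed as follows (log2(FC)). With the trend removed, at 2 weeks *Lgr6* was 1.08, *Nfatc1* 0.07 and *Fgf7* -0.55, at 10 weeks *Lgr5* was -0.63, in the wild type with age *Sox9* was 0.03, in *Socs3* cKO with age *Lgr6* was -0.31 and *Gli1* -0.35, and the interaction of *Sox9* was -0.64. When *Socs3* cKO replicate 1 of 2 weeks was also left out, *Lgr6* was 1.2, *Fgf18* 0.08 and *Fgf7* -0.51 at 2 weeks, *Lgr6* -0.43 and *Gli1* -0.34 in *Socs3* cKO with age, and the interaction of *Sox9* -0.66. Under quantile normalization *Lgr6* was 0.15 and *Fgf18* 0.03 at 2 weeks, *Lgr5* -0.28 at 10 weeks, *Fgf7* 0.61 in the wild type with age, and *Lgr6* -0.03 and *Gli1* -0.06 in *Socs3* cKO with age. Under median-of-ratios scaling *Lgr5* was -0.15 at 10 weeks, *Fgf7* 0.34 in the wild type with age, and the interaction of *Sox9* -0.04. Relative to *Krt5* and *Krt14*, *Lgr5* was -0.57, *Cd34* -0.10 and *Gli1* -0.12 at 10 weeks, *Fgf7* 0.07 in the wild type with age, and *Lgr6* -0.05 and *Gli1* -0.09 in *Socs3* cKO with age.

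Leaving out 1 mouse at a time gave 859 to 3348 DEGs over all genes at 2 weeks, 745 to 2665 at 10 weeks, 2205 to 3826 in the wild type with age, 300 to 700 in *Socs3* cKO with age, and 1994 to 5117 interaction calls. Members called were 3 to 5 at 2 weeks, 0 to 4 at 10 weeks, 4 to 5 and 0 to 1 with age, and 4 to 6 for the interaction. Signs changed within -0.54 to 0.30 for *Lgr6* at 2 weeks, -0.07 to 0.38 for *Lgr5* at 10 weeks, -0.30 to 0.27 for *Fgf7* in the wild type with age, and, in *Socs3* cKO with age, -0.42 to 0.42 for *Lgr6*, -0.55 to 0.07 for *Fgf18* and -0.33 to 0.43 for *Gli1*.

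Replicate numbers did not pair the mice: same-numbered mice had correlations of deviations from -0.04 to 0.14 at 2 weeks and -0.21 to 0.07 at 10 weeks, and 1 of 4 and 0 of 3 wild type mice correlated best with their own number. With the number as a replicate block, 751 genes were DEGs at 2 weeks. Without read counts, depth and counting error are unknown.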
